A study of Mus musculus with 12 samples.

Results

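The 49 genes described here copy DNA during S phase: they license origins, unwind and copy the strands, join the fragments, supply the nucleotides and restore chromatin behind the fork. The members were named as a list of symbols, and a member was measured where the array annotation gave a probe set carrying its symbol alone. That held for 48 of the 49, the exception being Chaf1a, and each gene was read by its brightest probe set. All 48 passed the filter on low signals, among 10583 genes that did so of 18194 with a probe set of their own.

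Before a cell can replicate, the origin recognition complex, Cdc6 and Cdt1 load the ring-shaped Mcm helicase onto origins, and Cdc45 and the GINS complex then switch it on. Polymerases alpha, delta and epsilon copy the strands, held to the template by the Pcna clamp that the Rfc loader places, while ribonucleotide reductase and the thymidine enzymes keep up the nucleotide pool. Most of these genes are transcribed under E2F factors as cells pass from G1 into S phase, so their RNA is high in dividing blood progenitors and low in cells that have stopped dividing.

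RNA of mouse blood cells was hybridised to 12 one-colour arrays, 3 in each of 4 groups: Stat5-bearing controls and animals lacking Stat5a and Stat5b, each as arrays whose titles end in a plus or a minus sign. The treatment protocols describe the sign as with or without CMP, but the letters CMP stand in the titles of plus and minus arrays alike, so whether they name an agent or the cells is not settled, and the groups are called plus and minus here. The titles follow 3 patterns, called sets A (CMPCTL and CMPKO), B (CC and KC) and C (CTLCMP and KOCMP), each with 1 array of every group. The sources do not give the kind of blood cell, the way Stat5 was removed, an age or strain, or whether arrays came from separate animals, so p-values measure the spread between these samples, which may be technical. Signals below are in the order of sets A, B and C.

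The Stat5a signal was 659.7 to 1436 on control arrays and 28.9 to 90.1 on knockout arrays, and that of Stat5b was 1036 to 2177 against 7.28 to 82.8. The array titled KC-, the knockout minus array of set B, is called a control by its treatment protocol but had Stat5 signals within the knockout range, and it was kept with the knockouts by title. Set B stood apart in the ratio of 3' to 5' beta-actin signal, at 19.7 to 54.8 against 1.19 to 4.40 in sets A and C. The Gapdh ratio was 26.3 to 67.9 in set B, but also 23.7 and 14.8 on the control and knockout plus arrays of set A. It was 2.15 to 5.24 on the remaining arrays. All 5 general leukocyte markers and all 6 stem and progenitor markers were above the low-signal filter. So were all 5 granulocyte precursor, 6 neutrophil, 5 megakaryocyte, 4 mast cell and basophil and 4 dendritic markers with a probe set. Of monocyte and macrophage and of erythroid markers, 4 of 5 each were. Above it were 0 of 4 B cell, 1 of 4 T cell, 1 of 3 NK cell, 0 of 3 hepatocyte and 1 of 4 fibroblast markers. The number of arrays limits the precision of every value.

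The strands upstream of 6 members are shown because they carry, or lack, the letters of an E2F site. Of these, 5 are all the members that fell in controls with such letters wholly before an annotated start. Ung is the member that fell most. A gene can have several annotated starts. Each is the 250 bases ahead of such a start on the plus strand, from RefSeq, build GRCm38.p6. E2F letters are in capitals (TTTCCCGC, TTTGGCGC or TTTCGCGC on either strand, which may overlap). For Orc1, Cdc6, Uhrf1 and Hells the start used lies past the gene's first annotated base. The bases around an earlier start of Uhrf1 held no such letters. The regions are chr4:108579204-108579453 for Orc1, chr11:98907901-98908150 for Cdc6, chr8:75109259-75109508 for Mcm5, chr17:56304063-56304312 for Uhrf1, chr19:38930740-38930989 for Hells and chr5:114130185-114130434 for Ung.
Orc1: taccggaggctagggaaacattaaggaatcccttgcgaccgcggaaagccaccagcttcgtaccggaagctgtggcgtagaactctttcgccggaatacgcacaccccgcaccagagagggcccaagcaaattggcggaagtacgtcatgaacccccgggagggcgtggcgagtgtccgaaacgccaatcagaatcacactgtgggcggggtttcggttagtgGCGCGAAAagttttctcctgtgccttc
Cdc6: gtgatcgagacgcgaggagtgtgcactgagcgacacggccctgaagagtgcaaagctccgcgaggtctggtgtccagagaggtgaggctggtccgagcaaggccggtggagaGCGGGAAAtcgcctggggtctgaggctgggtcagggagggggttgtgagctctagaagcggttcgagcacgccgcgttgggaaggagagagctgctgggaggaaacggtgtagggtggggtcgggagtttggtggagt
Mcm5: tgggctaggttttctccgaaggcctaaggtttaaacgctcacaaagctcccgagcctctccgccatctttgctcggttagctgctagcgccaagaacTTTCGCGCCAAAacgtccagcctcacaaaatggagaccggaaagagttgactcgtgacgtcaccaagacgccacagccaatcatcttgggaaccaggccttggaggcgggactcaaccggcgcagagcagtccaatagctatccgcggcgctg
Uhrf1: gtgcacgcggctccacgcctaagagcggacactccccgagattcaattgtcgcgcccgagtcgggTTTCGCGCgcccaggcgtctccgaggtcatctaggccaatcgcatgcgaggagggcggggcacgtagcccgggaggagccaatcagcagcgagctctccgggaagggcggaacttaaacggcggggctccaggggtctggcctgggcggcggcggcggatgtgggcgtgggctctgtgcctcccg
Hells: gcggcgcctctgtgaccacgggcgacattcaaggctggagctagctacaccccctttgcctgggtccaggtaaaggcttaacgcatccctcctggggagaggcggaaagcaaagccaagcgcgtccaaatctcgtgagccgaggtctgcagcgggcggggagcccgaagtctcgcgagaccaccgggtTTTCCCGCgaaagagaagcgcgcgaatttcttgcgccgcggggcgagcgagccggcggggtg
Ung: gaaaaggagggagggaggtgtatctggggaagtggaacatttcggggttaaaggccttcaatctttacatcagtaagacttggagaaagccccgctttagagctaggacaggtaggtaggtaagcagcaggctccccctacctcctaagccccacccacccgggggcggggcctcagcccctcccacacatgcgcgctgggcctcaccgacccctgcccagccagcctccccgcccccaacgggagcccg
In Mcm5 a pair of matches overlap and read as 1 stretch of capitals.

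A window of 300 bases, from 250 before to 50 after a start, was given for 40 of the 49 members, in 48 windows. A gene was counted where any of its windows had the letters. E2F letters stood in the windows of 16 of these 40 (40.0%) and of 573 of 27025 genes with a window (2.12%). Among the members, 4 of the 11 members with a window that fell in both genotypes had such letters (Lig1, Mcm3, Pold1 and Uhrf1). They also stood in 8 of the 21 with a call in neither genotype. These 21 include Chaf1a, which had no such letters and was not tested. The GC box GGGCGG was present in 32 of 40 (80%) against 38.2% of genes and the CCAAT box in 24 of 40 (60%) against 41.1%. The letters TTTGAA or TTCGAA of the CHR element stood in 8 of 40 (20%) against 21.7%, all motifs being searched on both strands. The letters TTCNNNGAA, to which Stat factors bind, were found in 3 of 40 (7.5%), in Cdc45, Lig1 and Mcm5, against 9.55% of genes. A match is a description of the letters and no evidence of binding.

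In controls, RNA of the replication genes was lower on plus than on minus arrays. Of the 48 genes, 22 fell and 0 rose (limma, Benjamini-Hochberg adjusted p under 0.05 over all 10583 genes), where 11.6% of all genes fell and 10.6% rose. The median difference of the 48, on the scale of log2(signal + 32), was -0.67, beside -0.02 for all genes tested, and 45 of 48 estimates were below 0. The largest falls were in Ung, Pold2, Tk1 and Dut, and each of the 8 role groups held at least 1 gene that fell by its brightest probe set. On 26 genes the plus arrays lay wholly below the minus arrays, which held for 12.5% of all genes. In bulk RNA, fewer replicating cells and less RNA per cell cannot be told apart.

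In knockouts 12 of the 48 fell and 0 rose, where 9.72% of all genes fell and 9.03% rose. All 12 were among the 22 of the controls, so that they made up 54.5% of that list and 100% of their own. The median difference was -0.40 beside -0.06 for all genes, 38 estimates were below 0, and on 12 genes the groups did not overlap with the plus arrays lower, against 11.4% of all genes. These comparisons share no array, but share the fitted spread and the set terms.

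Measured against the median of all genes on the same array, the median of the 48 genes was lower on plus arrays in both genotypes. It stood 1.79 to 1.97 log2 units above on the 6 minus arrays of both genotypes. On control plus arrays it stood 1.42, 0.84 and 1.18 above, and on knockout plus arrays 1.52, 1.73 and 1.33. Every plus array was below every minus array, and the lowest was the control plus array of set B.

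**Figure D1:**
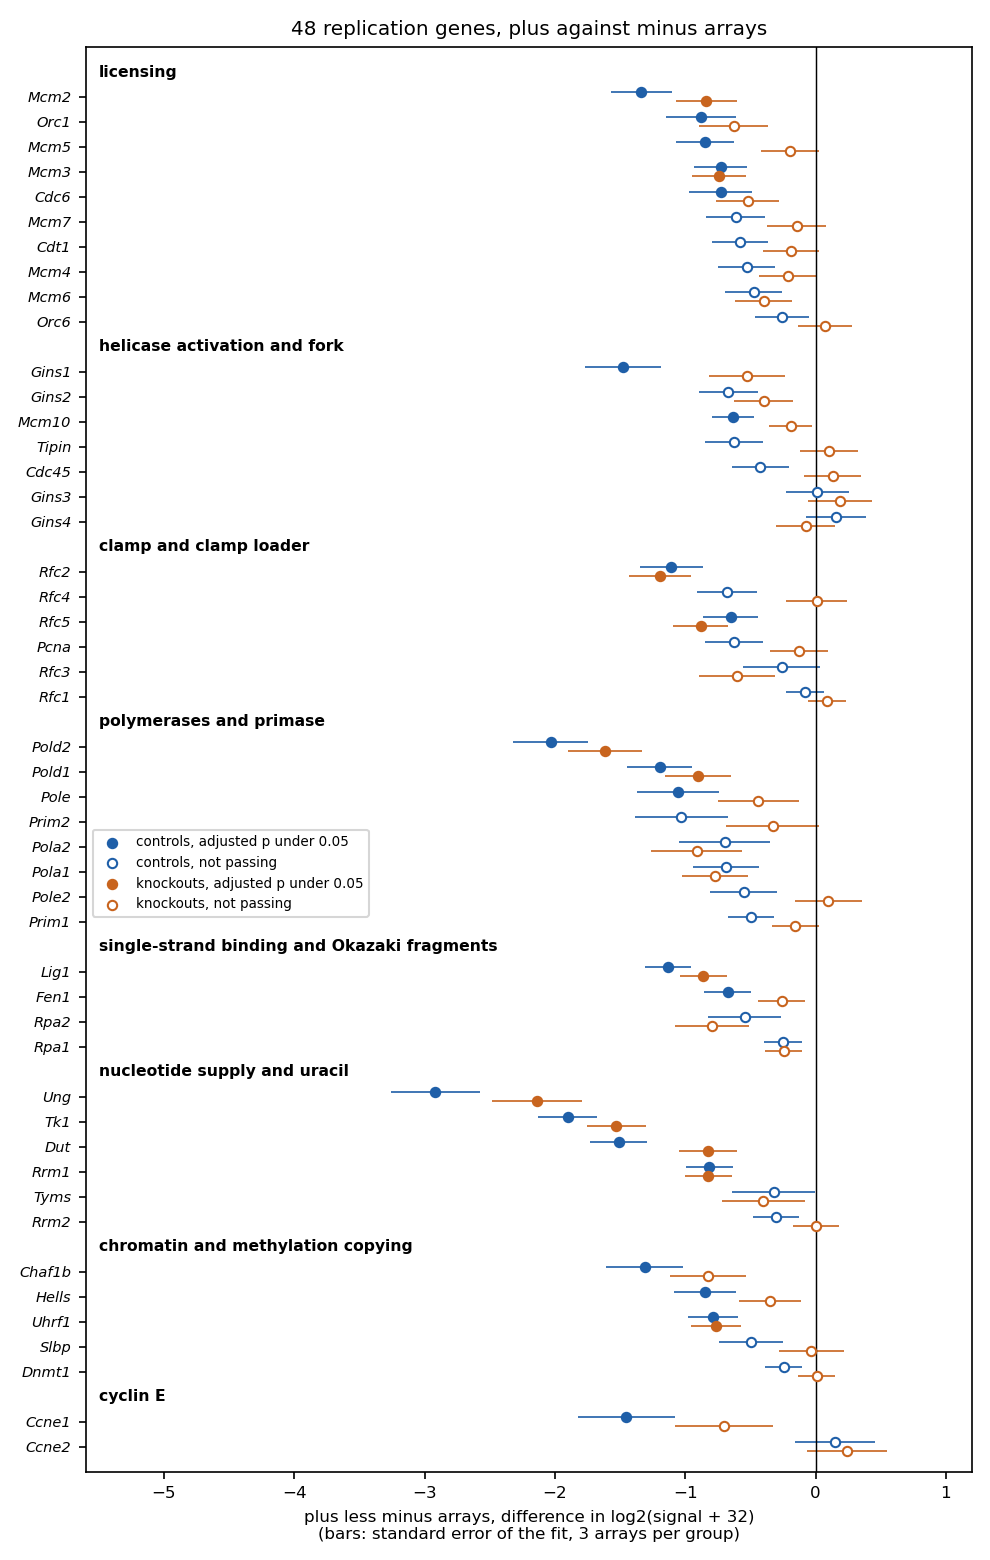
Difference between plus and minus arrays in log2(signal + 32) for each of 48 replication genes, grouped by role, in controls (blue) and knockouts (orange); points are fitted differences, bars their standard errors, filled points passed an adjusted p of 0.05. Filled points are 22 in controls and 12 in knockouts, all left of 0, with Ung farthest left in both.

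The nucleotide supply and uracil group had the lowest median of the 8 role groups in both genotypes. Ung, which supplies no nucleotides, is counted in it. Of 6 measured, 4 fell in controls and the same 4 in knockouts, with medians over the 6 of -1.16 and -0.82. Ung encodes the glycosylase that cuts uracil out of DNA. Its signal was 4544, 5413 and 4462 on control minus arrays against 619.7, 268 and 1298 on control plus arrays, and 4439, 3908 and 5873 against 792, 996 and 1414 in knockouts. The plus arrays did not reach the minus arrays in either genotype. The difference was -2.92 ± 0.34 (SE, n = 3 per group; adjusted p = 0.000297 by limma), a 7.55-fold fall, in controls and -2.14 ± 0.34 (adjusted p = 0.00195 by limma) in knockouts.

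Dut makes the enzyme that breaks down dUTP and so keeps uracil out of DNA in the first place. On control arrays it gave 8914, 4310.2 and 6846 without the plus sign and 2598, 1392 and 3052 with it. Knockout arrays gave 9229, 4108 and 7454 and 3586, 3601 and 3890.4. Groups were apart in both genotypes, though the knockout arrays of set B came close to each other. The differences were -1.51 ± 0.22 and -0.83 ± 0.22 on the log2 scale (limma adjusted p = 0.00101 and 0.0238).

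Tk1, thymidine kinase of the salvage route and a standard marker of S phase, read 2164, 916 and 3142 on control minus and 795, 143 and 842 on control plus arrays. In knockouts it read 2639, 821 and 3177 and 1047, 189 and 1239. Set B was the lowest array of each group, so that the knockout groups overlapped although the fall held within each set. Differences were -1.90 ± 0.23 and -1.53 ± 0.23 (limma adjusted p = 0.000309 and 0.00128).

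Ribonucleotide reductase, which turns ribonucleotides into deoxyribonucleotides, gave different readings for its large and small subunit by their brightest probe sets. Rrm1, the large subunit, was at 9426, 2701 and 8073 on control minus and 4835, 1184 and 6456 on control plus arrays, with 9675, 3266 and 9986 and 5135, 1666 and 6555 in knockouts. Within each set the plus array was lower, set B was low throughout and the pooled groups overlapped. It fell by nearly the same amount in both genotypes, -0.82 ± 0.18 and -0.82 ± 0.18 (limma adjusted p = 0.00817 and 0.00984). Rrm2, the small subunit, did not pass by its brightest probe set (-0.30 and 0.00). Its other probe sets gave -1.06 and -0.73 in controls and -0.45 and -1.11 in knockouts. The contrast between the subunits thus depended on the probe set. Tyms, thymidylate synthase, did not pass either (-0.32 and -0.40), and its signals of 73.3 to 493 came close to the filter of 76.4.

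**Figure D2:**
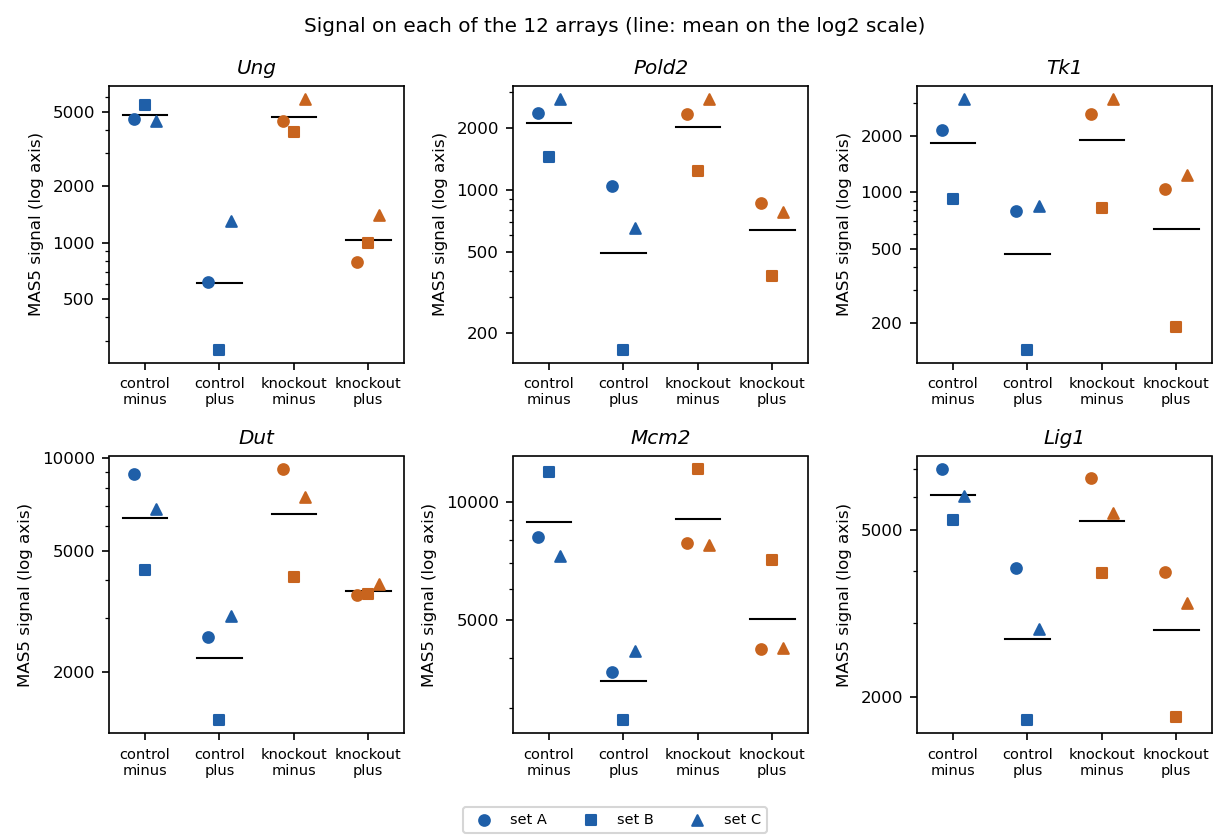
MAS5 signal on a log axis for Ung, Pold2, Tk1, Dut, Mcm2 and Lig1 on each of the 12 arrays, by group, with circles, squares and triangles for sets A, B and C and a line at the mean of the log2 values. In Ung the plus arrays reach 1414 at most while the minus arrays start at 3908.

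Among the 8 measured polymerase and primase genes, 3 fell in controls and 2 in knockouts, with medians of -0.86 and -0.60. Pold2 and Pold1 encode the regulatory and the catalytic subunit of polymerase delta, which copies the lagging strand. Pold2 gave 2377, 1445 and 2786 on control minus and 1048, 165 and 653 on control plus arrays, then 2362, 1244 and 2798 and 864, 379 and 785 in knockouts. No plus array reached a minus array. Its difference was -2.03 ± 0.28 in controls (4.09-fold; limma adjusted p = 0.000835) and -1.62 ± 0.28 in knockouts (limma adjusted p = 0.00336).

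For Pold1 the readings were 4714, 7541 and 3048 and 2987, 1914 and 1531 on control minus and plus arrays, and 3294, 6058 and 3205 and 2346, 2917 and 1400.2 in knockouts. It fell by 1.20 and 0.90 on the log2 scale (limma adjusted p = 0.00633 and 0.0280) with the groups apart. Pole, the catalytic subunit of leading-strand polymerase epsilon, fell in controls (-1.06 ± 0.31, limma adjusted p = 0.0315), and its value in knockouts was -0.44 ± 0.31 (limma adjusted p = 0.350). The remaining 5, the polymerase alpha subunits Pola1 and Pola2, the primases Prim1 and Prim2 and the epsilon subunit Pole2, gave -1.03 to -0.50 in controls and -0.91 to 0.10 in knockouts without passing. Prim2 in controls (-1.03, limma adjusted p = 0.0580) and Pola1 in knockouts (-0.77, limma adjusted p = 0.0536) were the nearest to the threshold.

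The licensing genes, which mark origins and load the helicase, fell in 5 of 10 cases in controls and 2 of 10 in knockouts. Mcm2, a subunit of the helicase ring, read 8143, 11893 and 7279 on control minus and 3687, 2783 and 4182 on control plus arrays. Knockout minus arrays gave 7863, 12095 and 7750.4 and knockout plus arrays 4229, 7109.7 and 4253. All plus arrays were lower than all minus arrays of their genotype, and the differences were -1.34 ± 0.23 and -0.84 ± 0.23 (limma adjusted p = 0.00253 and 0.0284).

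Its ring partner Mcm3 gave 7938, 4669 and 6795 against 5142, 2814 and 3784 in controls and 7024, 3983 and 6947 against 5047, 1650.3 and 4934 in knockouts. The pooled groups overlapped, but within each set the plus array was lower. Mcm3 fell by nearly the same amount in both, -0.73 ± 0.21 and -0.74 ± 0.21 (limma adjusted p = 0.0261 and 0.0280). Mcm5 fell in controls, from 11902, 16990.4 and 11078 to 8217, 5779 and 8054 (-0.85 ± 0.22, limma adjusted p = 0.0188). Its knockout arrays overlapped, at 11099, 17024 and 10808 and 9685, 15562 and 9017 (-0.20).

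Orc1, the largest subunit of the origin recognition complex, gave 429.7, 439 and 501 on control minus and 191, 224 and 296 on control plus arrays. These groups were apart, with a difference of -0.88 ± 0.27 (limma adjusted p = 0.0362), while in knockouts the value was -0.63 ± 0.27 (limma adjusted p = 0.121). Cdc6, the loading ATPase, was just inside the threshold in controls (-0.73 ± 0.24, limma adjusted p = 0.0481) and at -0.52 in knockouts. The other licensing members, Mcm4, Mcm6, Mcm7, Cdt1 and Orc6, ranged from -0.61 to -0.26 in controls and from -0.40 to 0.07 in knockouts, none passing.

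Among the 7 genes that activate the helicase or guard the fork, 2 fell in controls and 0 in knockouts. Gins1, a subunit of the GINS complex, read 3034, 2185 and 2513 on control minus and 1029, 630.1 and 1107 on control plus arrays. In knockouts the readings were 2617, 2619.6 and 2419 and 1396, 2775 and 1408. In controls every plus array was lower, whereas in knockouts the plus array of set B was above all the minus arrays. The differences were -1.48 ± 0.29 (limma adjusted p = 0.00474) and -0.53 ± 0.29 (limma adjusted p = 0.229).

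Mcm10, which helps to fire the loaded helicase, gave 3009.9, 3561 and 2815 against 1952, 1933 and 2108 in controls, with the groups apart (-0.63 ± 0.16, limma adjusted p = 0.0174), and a difference of -0.19 in knockouts. Averaging all its probe sets turned its sign to 0.02 in controls. The GINS genes were not alike: Gins2 gave -0.67, Gins3 0.01 and Gins4 0.16 in controls, none passing. Tipin, partner of Timeless at the fork, and Cdc45, the helicase cofactor, gave -0.63 and -0.42 in controls and 0.10 and 0.13 in knockouts.

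Of the clamp and its loader, Rfc2 and Rfc5 fell in both genotypes and the other 4 genes passed in neither. Rfc2 read 4484, 3398 and 4064 on control minus and 2554, 1349 and 1746 on control plus arrays, and 3655, 3218 and 3949 and 2420.1, 801 and 1917 in knockouts. Rfc5 read 4098, 2293 and 3513 and 2273, 1612 and 2291, then 3755, 2934 and 3994 and 2646, 990.0 and 2608. For both genes no plus array reached the minus arrays of its genotype. Rfc2 fell by 1.11 and 1.19 on the log2 scale (limma adjusted p = 0.00768 and 0.00666), and Rfc5 fell by 0.65 and 0.88 (limma adjusted p = 0.0452 and 0.0146). Pcna, the clamp itself, gave -0.62 (limma adjusted p = 0.0650) and -0.12. Rfc1, the large loader subunit, was at -0.08 and 0.09, with Rfc3 at -0.26 and -0.60 and Rfc4 at -0.68 and 0.01.

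Okazaki fragments, the short pieces of the lagging strand, are trimmed by Fen1 and sealed by Lig1. Lig1 gave 7013, 5293 and 6040.2 on control minus and 4072, 1753 and 2909.5 on control plus arrays, with 6659.5, 3955 and 5501 and 3975, 1784 and 3358 in knockouts. Control groups were apart, and in knockouts the plus array of set A was just above the minus array of set B. It fell by 1.13 ± 0.18 and 0.86 ± 0.18 on the log2 scale (limma adjusted p = 0.00143 and 0.00743). Fen1 fell in controls from 9376, 19015 and 9908 to 5813, 8962 and 8307 (-0.67 ± 0.18, limma adjusted p = 0.0202), with -0.26 in knockouts. The single-strand binding subunits gave -0.25 and -0.25 for Rpa1 and -0.54 and -0.80 for Rpa2, none passing.

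Chromatin and DNA methylation are copied with the strand by the last group, of which 3 of 5 measured genes fell in controls and 1 in knockouts. Uhrf1, which brings Dnmt1 to newly made DNA, read 5871, 3446 and 4371 and 3138, 1638 and 3301 on control minus and plus arrays, and 5292, 4052 and 4998 and 3359.6, 1694 and 3788 in knockouts. Its groups were apart in both genotypes, with differences of -0.79 ± 0.19 and -0.76 ± 0.19 (limma adjusted p = 0.0138 and 0.0187). Chaf1b, a subunit of the factor that lays histones on new DNA, fell in controls from 1964, 1596 and 1765 to 1269.5, 315 and 814. That difference was -1.31 ± 0.29 (limma adjusted p = 0.00880), with -0.82 ± 0.29 (limma adjusted p = 0.0705) in knockouts.

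Hells, a chromatin remodeller needed for DNA methylation, fell in controls from 3625, 2417 and 3251 to 2335, 927 and 2172 (-0.85 ± 0.24, limma adjusted p = 0.0248), and its knockout value was -0.35. Dnmt1, the maintenance methyltransferase, and Slbp, which binds histone mRNA, gave -0.24 and -0.49 in controls and 0.01 and -0.03 in knockouts. The E cyclins, which drive entry into S phase, went apart. Ccne1 fell in controls from 1926, 1454 and 1936 to 573, 265 and 1518 (-1.45 ± 0.37, limma adjusted p = 0.0169), where the plus array of set C overlapped the minus arrays, and was at -0.70 ± 0.37 (limma adjusted p = 0.206) in knockouts. Ccne2 was at 0.15 ± 0.31 and 0.24 ± 0.31 without passing.

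The probe set chosen for a gene bore on how far it fell. The brightest probe set of 12 members ends in _s_at or _x_at, names that mark probes shared by several transcripts or open to cross-hybridisation, and each of the 12 had another probe set above the filter. Read by the other one, the fall was larger in 11 of 12 members in controls and in 11 of 12 in knockouts, Ccne1 being the exception. In a fit made after the data were seen, with such probe sets left out, 9 of these 12 fell in knockouts in place of 3, and 9 in place of 6 in controls, where 10.0% and 11.3% of all genes fell. Pold1 (-1.38, limma adjusted p = 0.0773) and Ccne1 (-0.67, limma adjusted p = 0.0795) no longer passed in controls in that fit.

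Mcm7, a subunit of the helicase ring, shows the difference. Its brightest probe set gave 14168, 29823 and 14318 on knockout minus and 14195, 22144 and 14234 on knockout plus arrays, a difference of -0.14. The other gave 7523, 1853 and 9817 and 4090.3, 259 and 6895, with a difference of -1.36 ± 0.37 (limma adjusted p = 0.0251). In the second reading each plus array was below its set's minus array, with set B far below sets A and C.

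For Mcm5 the second probe set gave 4628, 966 and 4775 and 1452, 365 and 3198 in knockouts, a difference of -1.18 ± 0.24 (limma adjusted p = 0.00645) where the brightest gave -0.20. Rrm2 moved from 0.00 to -1.11 ± 0.33 (limma adjusted p = 0.0371) and Fen1 from -0.26 to -0.88 ± 0.21 (limma adjusted p = 0.0160). Which probe set reads the gene more truly was not tested. Over all members, 40 of the 44 other probe sets above the filter had the sign of the brightest one in controls and 36 of 44 in knockouts.

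**Figure D3:**
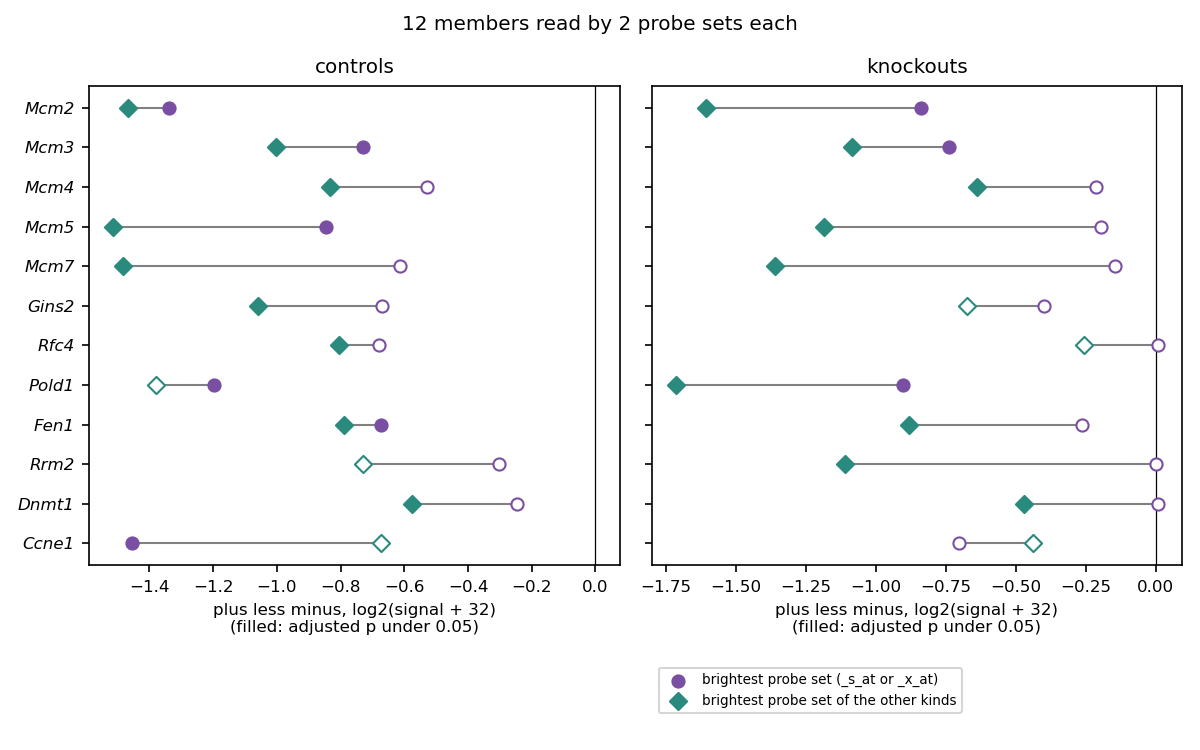
Difference between plus and minus arrays in log2(signal + 32) for the 12 members whose brightest probe set ends in _s_at or _x_at (circles), joined to the value of the brightest probe set of another kind (diamonds), in controls on the left and knockouts on the right; filled symbols passed an adjusted p of 0.05 in their fit. The diamond lies left of the circle in 11 of 12 genes on each side, and 9 diamonds are filled in each.

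The sets differed in signal level for many members. On set B the signal was below both other sets in all 4 groups for 15 of the 48 genes, Pcna, Rrm1, Tk1 and Pold2 among them, and above both in all 4 groups for 6 genes (Mcm4, Tipin, Rfc1, Rpa1, Fen1 and Dnmt1). The other probe sets of the 12 members just described were below in all groups for 9 and above for 0. Differences are therefore read within sets throughout, and 41 of the 48 genes were lower on the plus array in all 3 sets in controls and 27 in knockouts, beside 30.6% and 29.1% of all genes.

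Within each set, the control medians of the 48 genes were -0.58 (A), -1.09 (B) and -0.47 (C), where all genes gave -0.03, 0.03 and -0.06. In knockouts they were -0.40, -0.28 and -0.44. In sets A and C of the knockouts 42 and 44 of the 48 genes were below 0, and in set B 30.

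**Figure D4:**
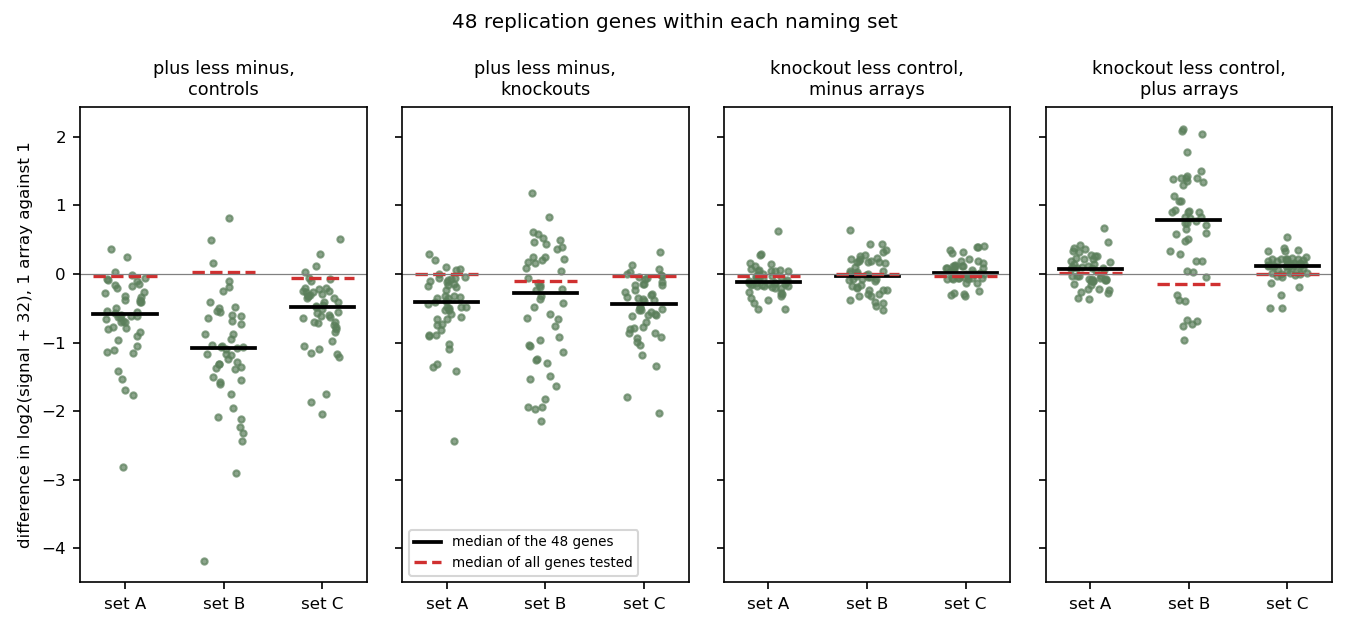
Differences in log2(signal + 32) of 48 replication genes within sets A, B and C for the comparisons of plus with minus and of knockout with control, each point a gene and 1 array against 1; black lines are medians of the 48 genes and dashed red lines medians of all genes tested. In plus arrays the knockout less control medians are 0.07, 0.79 and 0.12, so that set B stands apart.

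On minus arrays no change of these genes with the loss of Stat5 was detectable with 3 arrays a group. None of the 48 passed when knockout was set against control (limma; 0 lower and 0 higher, where 0.0189% of all genes, Stat5a and Stat5b, were lower and 0% higher), and 0 had an unadjusted p under 0.05 (1.50% of all genes lower, 0.860% higher). Differences ranged from -0.35 to 0.20 with a median of -0.02, beside -0.01 for all genes. The 3 with the smallest p were Tipin (-0.35 ± 0.22), Mcm10 (-0.22 ± 0.16) and Lig1 (-0.21 ± 0.18), with limma adjusted p = 1.0 for each. Only Ccne1 had groups that did not overlap, with knockouts higher (0.18), which held for 1.46% of all genes. Centring each array on its median moved the median of the 48 to 0.05 and of all genes to 0.05.

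On plus arrays 0 of 48 passed either (limma; 0.0189% of all genes lower, 0% higher), but 38 of 48 estimates were above 0 and 12 had an unadjusted p under 0.05, all higher in knockouts, where 4.43% of all genes were higher and 5.38% lower at that p. The median was 0.32 beside -0.04 for all genes, and on 7 genes the knockout arrays lay wholly above the controls (Mcm2, Mcm5, Mcm10, Gins1, Dut, Hells and Slbp), against 2.62% of all genes. The smallest p belonged to Dut (0.72 ± 0.22), Gins1 (0.95 ± 0.29) and Mcm5 (0.61 ± 0.22), each with limma adjusted p = 0.507. Within sets A, B and C the difference was 0.46, 1.35 and 0.35 for Dut and 0.43, 2.08 and 0.34 for Gins1. Most of the difference thus lay in set B, where the control plus array was the lowest of all and the source label of the knockout plus array opens with another number than its partners. Without set B the median of the 48 was 0.08, and without the control plus array of set B it was 0.10.

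Whether the fall differed between genotypes was tested by the interaction, which passed for 0 of 48 genes (limma; 0% of all genes lower and 0% higher), with 3 at an unadjusted p under 0.05, all above 0, where 0.917% of all genes were above and 1.19% below 0 at that p. The fall was larger in controls by estimate for 38 of 48 genes, with a median interaction of 0.32 beside -0.02 for all genes. Gins1 (0.95 ± 0.41), Tipin (0.73 ± 0.32) and Dut (0.69 ± 0.31) had the smallest p, with limma adjusted p = 0.954 for each. Medians within sets A, B and C were 0.19, 0.89 and 0.10. So the 10 genes that passed in controls and not in knockouts were not shown to differ between them.

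Genes of the same pathways outside the 49 were read against the shares of all genes that fell or rose. These were 11.6% lower and 10.6% higher in controls, and 9.72% lower and 9.03% higher in knockouts. Of 12 further nucleotide supply genes tested, 5 fell and 0 rose in controls (41.7% lower). In knockouts 6 fell and 2 rose (50% lower, 16.7% higher). Dctpp1, which removes dCTP and altered forms of it, fell by 2.11 ± 0.21 and 1.71 ± 0.21 (limma adjusted p = 9.1e-05 and 0.000424). Dctd, the dCMP deaminase, fell by 2.19 and 2.24, and Dtymk, thymidylate kinase, by 1.21 and 0.78. The genes that rose in knockouts were Rrm2b, a reductase subunit used outside S phase (0.71), and Samhd1, which breaks down nucleotides (0.68). In controls both were also higher on the plus array of each set, without passing. There Rrm2b read 627, 423 and 646 on minus and 711, 481 and 922 on plus arrays.

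Among 22 other polymerase and fork genes, 8 fell in controls (36.4%) and 5 in knockouts (22.7%) and 0 rose. Rnaseh2c, a subunit of the nuclease that removes ribonucleotides, fell by 1.57 ± 0.17 and 1.24 ± 0.17, Rnaseh2a, its catalytic subunit, by 0.78 and 0.92, and Poldip2, a polymerase delta partner, by 0.97 and 0.73. Of 18 other licensing and origin genes, 2 fell (11.1%) and 1 rose (5.56%) in controls, and 1 fell in knockouts (5.56%). None of these shares was higher than that of all genes. The helicase Recql4 and the origin kinase Cdc7 fell in controls (-1.0 and -0.73), and Donson, which helps to assemble the active helicase, rose there (0.87 ± 0.25, limma adjusted p = 0.0271).

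Among 13 histone chaperone and chromatin assembly genes 5 fell in controls (38.5%) and 2 in knockouts (15.4%), led by Cdca7, the partner of Hells (-1.64 ± 0.24 and -1.57 ± 0.24), with the histone chaperone Asf1b (-0.97) and Hirip3 (-1.44) in controls. Of 21 E2F and pocket protein genes 4 fell in controls (19.0%). In knockouts 1 fell (4.76%, under the share of all genes) and 2 rose (9.52%, near the 9.03% of all genes). Those that fell in controls were the repressor E2f8 (-1.04), the E2F partner Tfdp1 (-0.59) and the cyclins Ccna2 (-0.87) and Ccnd1 (-1.46). In knockouts Ccnd1 fell (-1.59), while Rb1, the retinoblastoma protein that holds E2F in check (1.35 ± 0.29, limma adjusted p = 0.00921), and Lin54 of the DREAM repressor complex (1.32) rose. Both were also higher on the plus array of each set in controls, without passing, though Rb1 hardly moved in set B. Rb1 read 1223, 1363 and 1289 on control minus and 1750, 1382 and 2149 on control plus arrays. In knockouts it read 918, 850 and 1071 and 1663, 4257 and 2084, with the largest rise in set B. Lin54 read 538, 387 and 701 on control minus and 1082, 514 and 1317 on control plus arrays.

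Of 19 replication checkpoint and fork repair genes 4 fell in controls (21.1%) and 0 in knockouts. Among the 4 were the nuclease Exo1 (-1.0), the deubiquitinase Usp1 (-0.63) and the fork protector Fancd2 (-0.85). Of 11 base excision repair genes tested, the pathway in which Ung acts, 2 fell in controls (18.2%), Apex1 (-0.96) and Parp1 (-0.70). In knockouts 0 fell and 1 rose (9.09%, near the 9.03% of all genes), Smug1, another uracil glycosylase (0.87). Smug1 was also higher on the plus array of each set in controls, without passing (698, 172 and 427 against 712, 426 and 771). The list medians were -0.56 for nucleotide supply, -0.50 for polymerase and fork, -0.43 for licensing, -0.30 for checkpoint, -0.20 for chaperone, -0.11 for E2F and 0.00 for base excision repair genes in controls. In knockouts they were -0.64, -0.43, -0.14, -0.05, -0.08, -0.12 and -0.25 in the same order.

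Other features of the samples moved with the plus sign. The ratio of 3' to 5' beta-actin signal was higher on the plus array in 6 of 6 pairs of set and genotype. The Gapdh ratio was higher in 5 of 6. Its log2 changes in sets A, B and C were 2.17, -0.0071 and 0.79 in controls and 2.31, 1.37 and 0.59 in knockouts. The members' median differences in that order were -0.58, -1.09 and -0.47 in controls and -0.40, -0.28 and -0.44 in knockouts. The part of RNA quality in the falls was not tested. With the beta-actin ratio in the model 17 members fell in controls and 5 in knockouts, while the calls over all genes went from 2344 to 1519 and from 1985 to 650. The members' median in that fit was -0.86 in controls and -0.61 in knockouts, below the -0.67 and -0.40 without the ratio.

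Some markers in several lists of blood cell types also differed between plus and minus arrays. Of all genes 11.6% fell and 10.6% rose in controls, and 9.72% fell and 9.03% rose in knockouts. A single call in a list this short does not by itself set the list apart from all genes. Of 7 erythroid markers listed, 5 had a probe set and 4 passed the filter. Klf1, Rhd and Car1 fell in both genotypes, and Epor did not pass (-0.84 and -0.83). The summed signal of the 5 was 5163 to 28736 on control minus against 949.8 to 3246 on control plus arrays. In knockouts it was 4415 to 18026 against 736 to 1573. Car1 and Klf1 made up most of it on minus arrays, such as 21113 and 6622 of 28736 on the control minus array of set B. Hba-a1, which missed the filter, had a signal of 3.53 to 102 over the 12 arrays. Mast cell and basophil markers, 4 of 5 with a probe set, summed to 6322 to 7791 against 1484 to 3752 in controls and 6262 to 8370.0 against 1029 to 6449.8 in knockouts, and 1 fell in controls (Cpa3, -2.02) and 2 in knockouts (Cpa3, -1.92, and Mcpt8, -1.07). Of 6 stem and progenitor markers Cd34 alone passed, lower in both genotypes (-1.07 and -1.04), while the estimates for Kit were above 0 (0.29 and 0.16).

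In the other lists, Nkg7, the only 1 of 3 NK cell markers above the filter, fell in both genotypes (-2.02 in controls). Of 5 megakaryocyte markers Gp9 alone passed, lower in both (-1.25 in controls), while Gp1bb was at 0.50 and 0.02. Of 5 granulocyte precursor markers Prtn3 fell in both genotypes (-0.61 in controls). Ctsg of the same list fell in controls (-0.97) and Ms4a3 in knockouts (-1.48). Camp was the 1 of 6 neutrophil markers that passed (-1.47 in knockouts). Of 4 dendritic markers H2-Ab1 fell (-0.83) and Cd74 rose (1.28), both in knockouts. Cd14, a monocyte receptor, rose in both genotypes (2.03 and 1.85) and was the 1 of 4 monocyte and macrophage markers above the filter that passed. Adgre1 and Cd68 of that list were at 0.80 and 0.38 in controls and -0.08 and -0.09 in knockouts. Of 5 general leukocyte markers Ptprc rose in both genotypes (0.49 and 0.78) and Cd53 in controls (1.18). The part of these cell types in the falls was not tested.

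Single arrays bore on how many members passed. In controls the count of 22 was 13 without the minus array of set A, 10 without the minus array of set B and 13 without the plus array of set B. In knockouts the count of 12 was 6 without the minus array of set B and 7 without that of set C. Without the set in the model the counts were 4 and 1. In all 28 settings run Ung, Dut, Mcm2 and Gins1 passed in controls, and Ung in knockouts.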

How the data were processed

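Per the labels and the submitters' processing notes, the authors deposited MAS5 intensity values, 1 linear signal for each of 45101 probe sets on 12 arrays. The trimmed mean was 500.0 on every array, and the version, target and detection calls are not given in the sources used here. The probe annotation pairs 34958 probe sets with 1 symbol, 932 with several and leaves 9211 unlisted. Each gene was read by its brightest probe set with 1 symbol, as log2(signal + 32), which understates changes of low signals. Genes with a mean under log2 6.76 (signal 76.4) were left out.

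A model of 4 groups and the naming set was fitted across 10583 genes (limma 3.58.1, R 4.3.3, eBayes with trend; 6 residual and 5.78 prior degrees of freedom), two-sided, with Benjamini-Hochberg adjustment and a threshold of 0.05. Errors are standard errors of that fit. The set was kept as a block because deviations from group means correlated at 0.41 to 0.77 in 18 same-set pairs of arrays and at -0.64 to 0.28 in 36 others.

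Tested on simulated data for plus against minus in controls, the fit recovered 37 of 100 genes changed 2-fold and 96 of 100 changed 4-fold among 10583. The members and lists were chosen with earlier results of these data known. Of each role, up to 4 members that passed, by smallest p in controls, are named with values, further ones to account for every member. Alternatives covered the block, each array and set left out, the conflicting label, pseudocount, filter, scaling, probe sets, samples fitted, beta-actin ratio and array weights. Promoter letters were searched with Python 3.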

Additional observations from a re-analysis of the deposited data

Results flagged for a closer look

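Rfc4, a subunit of the clamp loader, was singled out because its knockout difference went opposite ways on minus and plus arrays in every set. That held by its brightest probe set, which ends in _s_at. Its other probe set gave 0.076 on minus and 0.63 on plus arrays, so the opposite direction depended on the probe set. The values that follow are of the brightest. On minus arrays knockout less control was -0.27 (A), -0.03 (B) and -0.0034 (C), and on plus arrays 0.14, 1.40 and 0.21. The interaction was 0.69 ± 0.33 (limma adjusted p = 0.954), which did not pass, and the differences on minus arrays were small beside that error. Groups of 3 arrays were not screened for outlying arrays.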

How the results depend on the processing

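The direction of the members' median held in every alternative run for plus against minus: -0.87 to -0.50 in controls and -0.61 to -0.35 in knockouts, over the settings that leave out no single array. The counts did not hold, and the calls over all genes, given in brackets, moved too. In controls, 22 members passed (2344); leaving the set out of the model (no replicate block) gave 4 (470), leaving out set A 11 (1055), leaving out set C 9 (571), array weights 35 (4151), and leaving out 1 array at a time 10 to 32 (1291 to 3450). In knockouts, 12 passed (1985); no replicate block gave 1 (298), leaving out set A 5 (679), set B 20 (2648) and set C 2 (356), the array of conflicting labels as a control 6 (972), fitting only the arrays of both groups compared 6 (662), the beta-actin ratio as a covariate 5 (650), array weights 22 (4008), and leaving out 1 array at a time 6 to 16 (937 to 2368). These counts are therefore no measure of the members alone. Leaving out sets or arrays fits fewer samples; for the other settings the cause was not tested. Pseudocounts of 1 and 100, both filters, both scalings and averaging of probe sets stayed within 1.5 times the count, as did leaving out probe sets ending in _s_at or _x_at (25 and 18), an alternative chosen after seeing the data. Knockout against control, on minus and on plus arrays, and the interaction gave 0 in every setting. Centring arrays on their medians moved the median of all genes from -0.02 to -0.22 in controls, from -0.06 to -0.13 in knockouts, from -0.04 to 0.15 for knockout against control on plus arrays and from -0.02 to 0.11 in the interaction; the members' medians were then -0.87, -0.46, 0.52 and 0.46.

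Of single members that passed, 504 of 616 values in controls kept direction and call, 111 lost the call and 1 reversed; in knockouts 266 of 336 kept it and 70 lost it. Mcm10 reversed when all its probe sets were averaged, to 0.019 in controls and to 0.047 for knockout against control on minus arrays, and Tyms then dropped under the filter. The limits are 3 arrays a group, 1 array a set and group, a beta-actin ratio that rises with the plus sign, and unknown cells.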
